A study of Mus musculus with 12 samples.

Results

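A CpG is a palindrome, so each site carries a cytosine on both strands, and the base that follows that cytosine can differ between the strands. The sites described here were CpGs followed by C on one strand and by T or A on the other, chosen on the mouse autosomes by sequence alone. A site counted as low-density when at most 5 rows of the count table, itself included, lay within 100 bp on each side. It was a member when the forward-strand bases before and after the CpG in mm10 were A and C, G and T, G and A, or T and C. By this rule 3323358 sites were members, 21.1% of the 15761875 low-density autosomal sites with known flanking bases, in a table of 21867550 rows. Each member was read on the strand where C follows the CpG. Those with A before it (ACGC, read GCGT on the other strand) are called C/T sites and numbered 1878513. Those with T before it (TCGC, read GCGA on the other strand) are called C/A sites and numbered 1444845.

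DNMT3A and DNMT3B are the de novo DNA methyltransferases, which place methyl groups on CpGs that were unmethylated before. Both touch the bases around the CpG through a loop of the catalytic core and a loop of the target recognition domain. In DNMT3B, N656 lies in the first of these loops, and K777 and N779 lie in the second. A site that joins CGC with CGT or CGA offers the enzyme a different neighbor on each strand. The table merges the strands, so it cannot be told which of its cytosines was methylated.

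Methylation was measured by enhanced reduced representation bisulfite sequencing (eRRBS) in 12 mouse embryonic stem (ES) cell lines. They fall into 6 groups, and the 2 lines of a group were derived separately. Every line was DNMT TKO, that is, knocked out for Dnmt1, Dnmt3a and Dnmt3b. Every line also carried a human enzyme stably from the pPyCAGIZ vector under Zeocin (50 µg/ml for 10 days, then 25 µg/ml, per the sample labels, whereas the methods of the study give a longer selection). The groups were DNMT3A WT, DNMT3B WT set a (lines 1a and 2a), DNMT3B N656I, DNMT3B WT set b (lines 1b and 2b), DNMT3B K777A and DNMT3B N779A. DNMT3A and N656I were compared with WT set a, and K777A and N779A with WT set b, whose line names share a prefix with theirs. Dnmt1, the maintenance methyltransferase, was missing from all lines alike. The study added unmethylated lambda DNA to follow bisulfite conversion. Those reads, and a TKO library without an enzyme, were not analysed here. A methylation table offers no marker by which to check the cell type or the transgene.

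The contexts below are examples from the results that follow. Each is 8 bases long, 5′ to 3′ on the strand where C follows, with the CpG and its direct neighbors in capitals. Positions -3, -2, +2 and +3 are the outer bases, counted from the CpG. They were taken from the highest and lowest levels in a group and the widest moves between groups, some of them rare, and the rest are named beside their values.
C/T, highest in DNMT3A: ttACGCgc
C/T, highest in WT set a and in N656I: gtACGCgc
C/T, highest in K777A: ttACGCag
C/T, highest in N779A: ttACGCgg
C/T, largest rise in K777A: ccACGCaa
C/T, largest rise in DNMT3A: tcACGCaa
C/T, lowest in N656I: aaACGCtg
C/T, largest fall in N656I: gaACGCtg
C/A, largest fall in K777A and in N779A: gtTCGCgc
On the other strand ccACGCaa reads ttGCGTgg, ttACGCgg reads ccGCGTaa and gtTCGCgc reads gcGCGAac. The base at -2 is thus the complement of the second base after the CpG on the other strand. A G at +2 makes a second CpG directly after the first.

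Single sites were chosen for depth and not for methylation. On the autosomes searched, of which 1 was left out, 17 C/T and 14 C/A sites had 10 to 200 reads in all 12 lines. The 3 deepest of each kind that lay at least 10 kb apart are shown with 41 bases of GRCm38.p6 (mm10), with the CpG and 3 bases on each side in capitals. All 6 read on the reverse strand.
C/T site 1, chr8:20341999-20342039: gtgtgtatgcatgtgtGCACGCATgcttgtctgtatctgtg
C/T site 2, chr5:68218729-68218769: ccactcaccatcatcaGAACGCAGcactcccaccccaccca
C/T site 3, chr8:20812672-20812712: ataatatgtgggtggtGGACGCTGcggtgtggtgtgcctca
C/A site 1, chr8:19935621-19935661: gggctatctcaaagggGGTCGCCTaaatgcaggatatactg
C/A site 2, chr5:33330930-33330970: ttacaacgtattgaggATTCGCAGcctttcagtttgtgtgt
C/A site 3, chr8:20119536-20119576: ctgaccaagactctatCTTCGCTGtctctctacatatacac
C/T site 1 lay in introns of Gm26804 and Gm15319 (GENCODE) (soft-masked sequence marks a repeat). The other 5 were intergenic. C/T sites 1 and 3 and C/A sites 1 and 3 lay close together on chr8, and whether reads from several copies were pooled there was not tested. C/T sites 1 and 2 and C/A site 2 were soft-masked. The nearest gene was 52351 bp away for C/T site 2 (Grxcr1), 15661 bp for C/T site 3 (Gm20946), 7189 bp for C/A site 1 (Gm20786), 4559 bp for C/A site 2 (Maea) and 2828 bp for C/A site 3 (Gm21769). At C/T site 3, 11 of 38 and 17 of 47 reads were methylated in the DNMT3A lines, and in the other 10 lines the counts ran from 0 of 44 to 3 of 19. At C/A site 2, 34 of 68 and 31 of 72 reads were methylated with DNMT3A, 16 of 26 in WT line 2a and 0 of 36 in K777A line 1. At C/A site 3, 24 of 57 and 5 of 100 reads were methylated in the DNMT3A lines. Counts at 1 site could thus differ between lines of 1 group, and the results below rest on means over many sites.

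The lines held 16224222 to 36029921 CpG reads over all rows. They covered 4.52% (WT line 2a) to 49.7% (K777A line 2) of the members, that is 150094 to 1651014 sites. Depth was 2.30 to 5.15 reads per covered member, except for 16.6 in line 2a. At C/T sites with at least 10 reads, 80.1% had no methylated read in line 2a and 10.5% had methylated reads only, against 55.1% and 0.68% in line 1a. Among all lines, the share with no methylated read ran from 12.8% to 80.1%, with 75.03% in N656I line 2, and the share with methylated reads only reached 16.3% in DNMT3A line 2. Line 2a stood apart most plainly in its depth and coverage. Values of WT set a are given in the order 1a, 2a, so that line 1a can be read alone, and median changes are also given without line 2a. Levels are means of methylated over all reads across covered sites (at least 1 read), each site weighted equally, and p-values measure the spread between lines.

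Members and the remaining low-density CpGs held different places in the groups. With DNMT3A the members were methylated at 43.6% and 43.5% in the 2 lines and the remaining sites at 39.9% and 39.7%. With WT DNMT3B the order was the opposite: 13.8% and 13.4% against 19.7% and 18.6% in set a, and 11.4% and 10.5% against 16.6% and 15.2% in set b. N656I held members lowest relative to the rest, at 9.08% and 6.78% against 17.96% and 13.9%, a ratio of 0.497 ± 0.012 (SD, n = 2). N779A lay close to its WT set, with a ratio of 0.689 against 0.688 for WT set b. K777A reversed the order, with members at 8.60% and 9.95% and the rest at 7.13% and 8.13%, a ratio of 1.21 ± 0.012. In all 4 comparisons the lines of the groups did not overlap in this ratio, although those of N779A (0.690 and 0.688) lay barely above those of WT set b (exact permutation test, two-sided, p = 0.33 each, the smallest that 2 against 2 lines allow). Among the 10 classes of CpG by the bases that follow on the 2 strands, C/T sites ranked 2 from the highest in both DNMT3A lines, 3 in both K777A lines, 6 in both N779A lines and 7 in both lines of WT set a, WT set b and N656I. C/A sites ranked 5 in both lines of DNMT3A and K777A, 8 in both lines of each WT set and 9 in both N779A lines. In N656I they ranked 9 and 8.

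The main contrast within the members was between C/T and C/A sites. N779A showed the widest gap. Its C/T sites were methylated at 11.1% and 12.6% and its C/A sites at 6.76% and 7.76%, so that all C/T values lay above all C/A values. K777A came next, with 9.74% and 11.4% at C/T sites and 7.17% and 8.11% at C/A sites. In the other groups the 2 kinds of site were close. WT set b gave 11.7% and 10.8% at C/T sites and 11.0% and 10.0% at C/A sites, whereas WT set a gave 13.96% and 13.6% against 13.6% and 13.2%. N656I gave 9.13% and 6.80% against 9.01% and 6.75%, and DNMT3A gave 44.4% and 44.2% against 42.7% and 42.5%. The 2 N656I lines differed from each other far more than their C/T and C/A sites did.

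The gap was also taken as a log2 ratio of C/T over C/A sites. It removes a factor common to both kinds of site. Unlike a ratio of odds, it still depends on the overall level, which was far higher in DNMT3A. On this scale the groups were 0.71 ± 0.0071 (SD, n = 2) in N779A, 0.47 ± 0.036 in K777A, 0.10 ± 0.013 in WT set b, 0.056 ± 0.00087 in DNMT3A, 0.037 ± 0.0064 in WT set a and 0.015 ± 0.0067 in N656I. In N779A this was a level 1.64 ± 0.0081 times that of C/A sites, and in K777A 1.38 ± 0.034 times. Against WT set b the log2 ratio was higher by 0.61 (SE 0.010) in N779A and by 0.36 (SE 0.027) in K777A, and both lines of each mutant lay above both WT lines. DNMT3A differed from WT set a by 0.018 (SE 0.0046) and N656I by -0.023 (SE 0.0065). With 2 lines against 2, the exact permutation test (two-sided) cannot give less than p = 0.33, and it gave p = 0.33 in all 4 comparisons. The WT sets differed from each other by more than DNMT3A or N656I differed from set a. The DNMT3A difference turned to -0.016 at the 71233 members covered in all 4 lines, so no direction is given for it. The N656I difference was -0.053 at the 80025 members covered in all 4 lines and turned to 0.013 with outer contexts weighted equally, so it too is given no direction. At the 213979 and 106661 such members of the K777A and N779A comparisons, the differences were 0.32 and 0.62.

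With at least 10 reads per site in each line, stricter than the same minimum on combined replicates, N779A gave log2 ratios of 0.71 and 0.69. K777A gave 0.29 and 0.48, and the first of these lines had no more than 5117 members at that depth. The ratios of the other groups then lay between -0.036 and 0.070. Mean reads per site were 2.87 and 3.01 at C/T sites and 2.92 and 3.01 at C/A sites in the N779A lines. In K777A they were 2.29 and 3.18 against 2.32 and 3.24, so the mean depths of the 2 kinds were close in these lines.

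**Figure D1:**
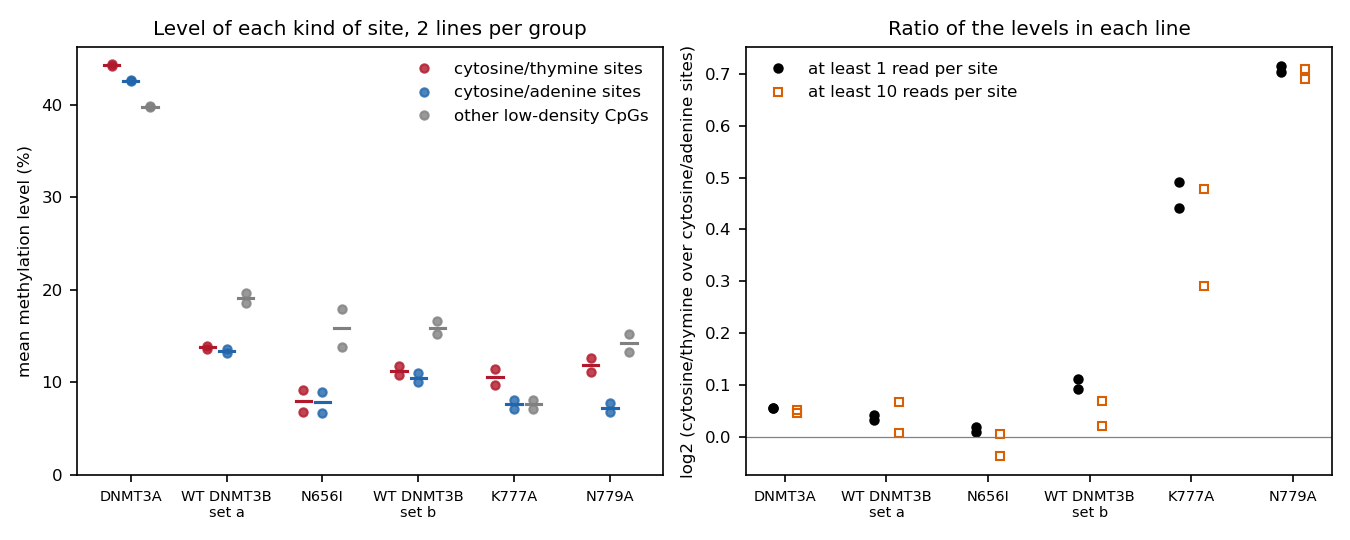
Left, mean methylation level in percent of C/T sites (cytosine/thymine), C/A sites (cytosine/adenine) and the remaining low-density CpGs, 1 point per line and a bar for the mean of 2 lines. Right, log2 ratio of C/T over C/A sites per line, with at least 1 read (filled) or 10 reads (open) per site. The N779A lines sit at 0.71 and 0.70 and the K777A lines at 0.44 and 0.49 with at least 1 read, above all other lines.

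The gap was also seen between contexts that share all 4 outer bases and differ only in the base before the CpG. Over all such pairs, the C/T context was higher in both lines for 241 pairs in K777A and 235 in N779A, and the C/A context was higher in both lines for 5 and 10. In WT set b the counts were 169 and 49, in DNMT3A 164 and 62, in WT set a 143 and 61, and in N656I 137 and 92. In line 1a alone the C/T context was higher in 176 pairs and the C/A context in 80. The median log2 ratio over pairs was 0.81 and 0.85 in the N779A lines, 0.47 and 0.55 in K777A, and 0.29 and 0.30 in WT set b. Weighting the pairs equally thus gave wider gaps than weighting the sites equally, also in WT set a (0.22 and 0.21) and N656I (0.21 and 0.20). The pairs of a line share its library, and contexts differ in size from 52 to 47587 members.

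**Figure D2:**
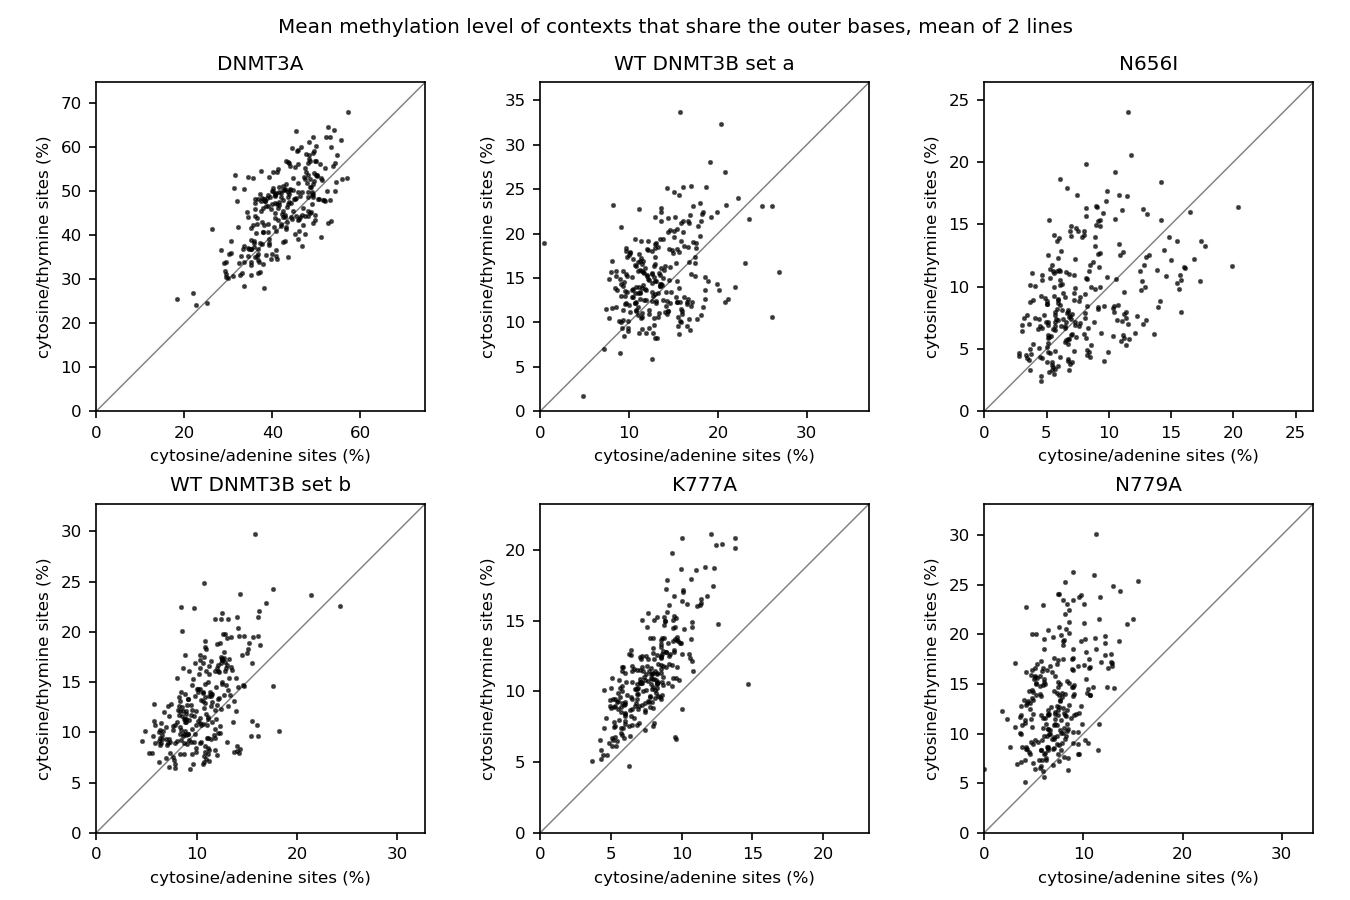
Mean methylation level in percent of each C/T context (vertical axis) against the C/A context with the same outer bases (horizontal axis), 1 point per pair of contexts, mean of 2 lines, with the line of equal levels. Most points of K777A and N779A lie above that line, while those of N656I scatter on both sides.

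A member combines the surroundings of classes in which the same base follows on both strands, so its level was set beside theirs. In DNMT3A, sites with C on both strands were at 49.4% ± 0.033 and sites with T on both strands at 42.7% ± 0.16. The C/T sites lay 1.79 ± 0.030 points below the mean of these classes, but level with it (-0.00788 points) when outer contexts were weighted equally. In WT set a and set b they lay 1.96 ± 0.16 and 1.86 ± 0.12 points above it, near the T class (2.07 points in line 1a alone). In N656I they lay 2.00 ± 0.33 points above it and slightly above both classes in both lines. In K777A they lay 0.16 ± 0.088 points below and in N779A 0.71 ± 0.070 points above. With outer contexts weighted equally K777A turned to 0.405 points above and N779A rose to 1.73, so no direction is given for K777A.

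The C/A sites behaved differently. With A on both strands WT set a reached 26.0% ± 1.5 and WT set b 21.8% ± 1.4, but C/A sites lay 4.04 ± 0.33 and 3.90 ± 0.16 points below the mean of the A and C classes, that is, nearer to the C class (4.28 points below in line 1a alone). N656I had the widest mean shortfall, 4.61 ± 0.82 points, although its line 2, at 4.03 points below, lay less far below than WT line 1a. N779A had a shortfall of 2.45 ± 0.21 points. In DNMT3A the C/A sites lay 2.07 ± 0.015 points above the mean of their classes, and in K777A 0.095 ± 0.014 points above. As a ratio to that mean, C/A sites stood at 0.63 ± 0.0058 in N656I, 0.73 ± 0.0048 in WT set b, 0.75 ± 0.0025 in N779A, 0.77 ± 0.011 in WT set a, 1.01 ± 0.00082 in K777A and 1.051 ± 0.00051 in DNMT3A. In all 4 comparisons the lines of the groups did not overlap in this value: DNMT3A lay above and N656I below WT set a, and K777A and N779A lay above WT set b (exact permutation test, two-sided, smallest p possible 0.33).

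**Figure D3:**
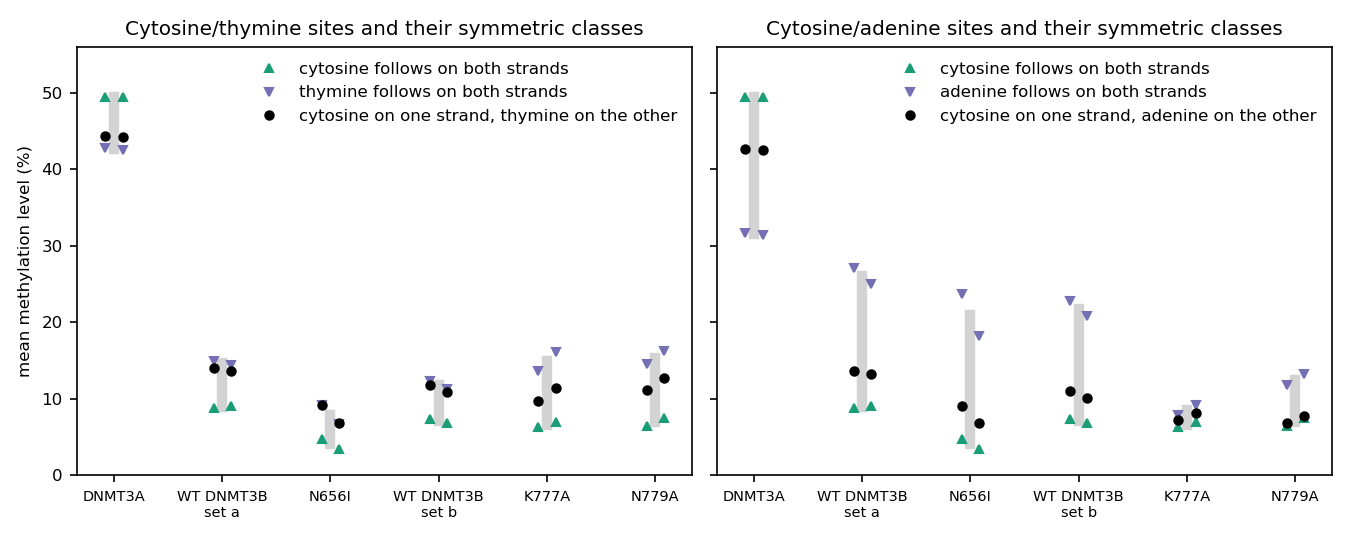
Mean methylation level in percent of C/T sites (left) and C/A sites (right) as dots, beside the classes in which C (upward triangles) or the other base (downward triangles) follows on both strands, 1 symbol per line. The gray bar joins the 2 class means. C/A sites sit near the lower, C end of the bar in WT DNMT3B, N656I and N779A.

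Of the outer positions, -2 had the widest range of levels between bases in every group, except at C/T sites of K777A, where +2 did. At C/T sites T at -2 gave the highest level in all 12 lines. It reached 54.7% and 54.2% in DNMT3A, 20.7% and 19.99% in WT set a, 17.5% and 16.3% in WT set b, 17.3% and 19.3% in N779A, 13.4% and 15.4% in K777A and 13.7% and 10.2% in N656I. The lowest base at -2 differed between groups. It was C in both WT sets (11.4% and 11.52% in set a), in N779A (7.85% and 9.29%) and in K777A (8.78% and 10.3%), and A in DNMT3A (38.2% and 38.1%) and N656I (5.37% and 3.90%). The highest base exceeded the lowest 1.43 ± 0.0059 times in DNMT3A, 1.51 ± 0.020 times in K777A, 1.78 ± 0.062 and 1.81 ± 0.0096 times in WT sets a and b, 2.14 ± 0.083 times in N779A and 2.59 ± 0.060 times in N656I. These ratios of levels, and those below, depend on the level itself. That level was far higher in DNMT3A, so they do not rank DNMT3A against the other groups. Of 192 values of a base relative to the mean (4 positions, both kinds of site, 6 groups), 24 changed sign with outer contexts weighted equally and 17 with at least 10 reads. T at -2 stands for A as the second base after the CpG on the other strand, GCGTA.

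At C/A sites the base at -2 ranked otherwise. C was highest in N656I (13.7% and 10.2%) and in DNMT3A (45.9% and 45.7%). In K777A C was lowest (5.92% and 6.68%), and T was highest (8.28% and 9.58%). G was lowest in both WT sets (10.5% in both lines of set a), in N656I (5.62% and 4.14%) and in N779A (5.04% and 5.83%). The ratio of highest to lowest was 2.46 ± 0.018 in N656I and 1.23 ± 0.00069 to 1.56 ± 0.0069 in the other groups.

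At +2, beyond the following C, K777A stood apart from its WT set. C/T sites with A there were methylated at 11.96% and 14.1% and those with C at 7.31% and 8.51%, a ratio of 1.65 ± 0.014 between the highest and the lowest base. In WT set b the highest base was G, the CGCG sites, at 14.9% and 14.03%, and T was lowest at 11.1% and 10.2%. G at +2 was also the highest in N656I (13.2% and 10.1%, with A lowest at 7.60% and 5.47%). DNMT3A resembled K777A in its highest base, with A at 49.4% and 49.1% and T lowest at 40.9% in both lines. Sites with G at +2 numbered 73736 among C/T and 38009 among C/A sites, so they weigh little in the means.

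At +3, C/T sites with G were the highest and those with T the lowest in K777A (11.6% and 13.6% against 8.21% and 9.51%) and in N779A (12.1% and 13.9% against 9.77% and 11.3%). In N656I G was lowest (7.46% and 5.49%) and C highest (10.3% and 7.61%). At -3 the ratios were 1.11 ± 0.0047 (N779A) to 1.27 ± 0.0095 (DNMT3A) at C/T sites, and A was the lowest base in every group except DNMT3A, where C was.

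**Figure D4:**
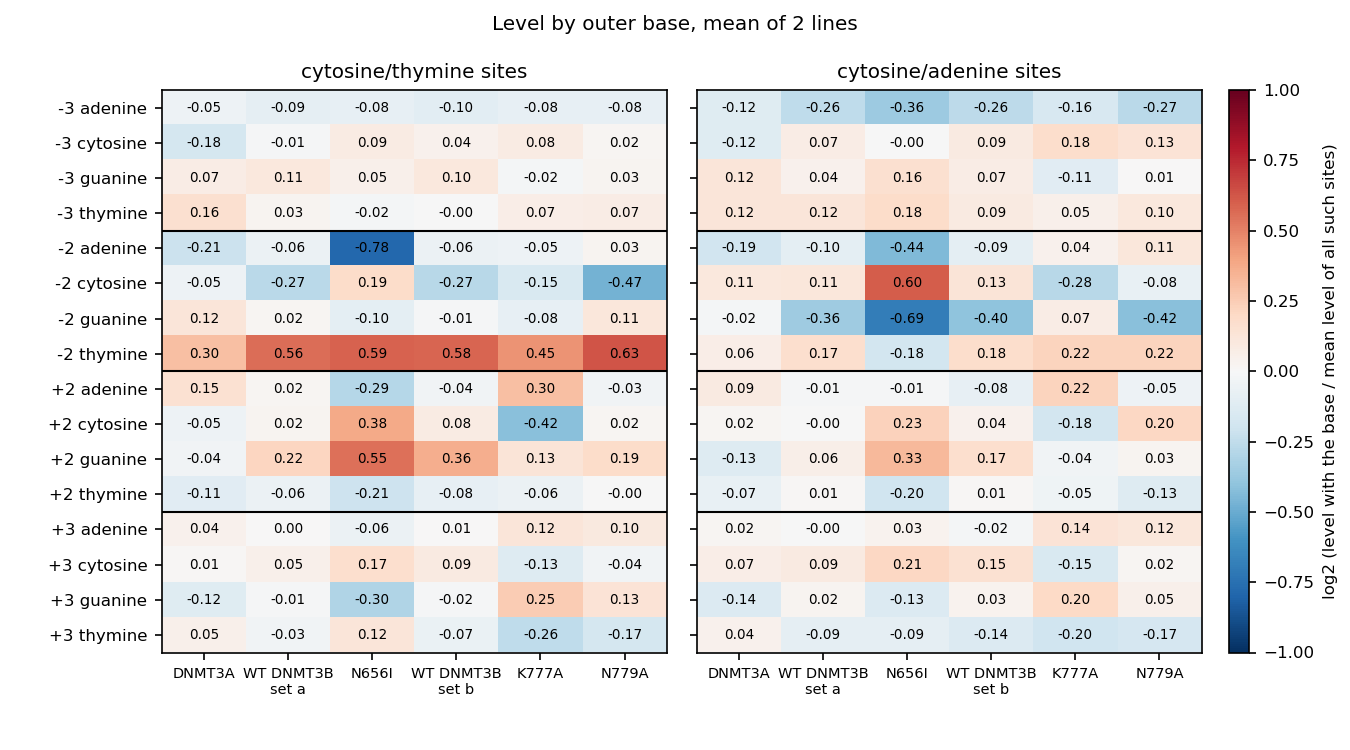
Log2 of the level with each outer base over the mean level of all C/T sites (left) or all C/A sites (right), mean of 2 lines, by position (rows) and group (columns). Red is above and blue below the mean. Among C/T sites the lowest cell is A at -2 in N656I at -0.78 and the highest T at -2 in N779A at 0.63, and among C/A sites the lowest is G at -2 in N656I at -0.69.

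The gap between C/T and C/A sites also moved with the base at -2. In N779A the log2 ratio was 1.25 and 1.23 with G there and 1.14 and 1.08 with T, but 0.28 and 0.35 with C. In WT set b it was 0.49 and 0.50 with G and -0.31 and -0.29 with C, and in N656I 0.79 and 0.78 with T and -0.41 and -0.40 with C. C/A sites were thus the higher ones with C at -2 in every line of DNMT3A, N656I and both WT sets. In K777A all 4 bases gave positive ratios, from 0.26 and 0.38 with G to 0.70 and 0.68 with T. The overall gap in N656I and WT DNMT3B thus joined gaps of both signs.

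The single contexts spread widely. Between the 5th and the 95th percentile of the member contexts, levels ran from 31.1% to 57.2% in DNMT3A line 1, from 3.94% to 20.03% in N779A line 1 and from 4.32% to 18.5% in N656I line 1. Across contexts the 2 lines of a group correlated with r = 0.94 in N779A, 0.92 in DNMT3A, 0.90 in K777A, 0.88 in N656I, 0.78 in WT set b and 0.50 in WT set a, a description over contexts that share a library. Line 2a had a single covered site in its smallest context. Among contexts with at least 20 covered sites in both lines, ttACGCgc was the highest in DNMT3A (63.4% and 72.4% over 128 and 107 sites) and in WT set b (32.1% and 27.4%). The context gtACGCgc was the highest in WT set a (35.3% and 32.0%, the second over 25 sites) and N656I (24.3% and 23.7%). The highest in K777A was ttACGCag (19.1% and 23.2% over 2900 and 3515 sites) and the highest in N779A was ttACGCgg (31.5% and 28.8%). These 4 share T at -2.

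The lowest contexts had less in common. In N656I aaACGCtg was at 2.83% and 2.02%, over 11239 and 9412 sites. It is 1 of the most common contexts, with 45676 members, of which 65.5% were soft-masked. Outside soft-masked sequence it was at 3.52% and 2.57%. In DNMT3A the lowest context was aaTCGCgg (21.01% and 15.9%), in K777A acTCGCcc (3.67% and 3.72%) and in WT set b ggTCGCga (5.92% and 3.88%), all C/A contexts. The lowest in N779A, cgTCGCgt, rested on 32 sites in each line (0% and 3.52%), followed by ggTCGCga at 2.04% and 2.56%. In WT set a acACGCga was lowest (8.08% and 3.70%, the second over 57 sites).

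To ask which contexts moved between groups beyond the overall level of the lines, limma was fitted to the log2 odds of methylation of all strand-merged contexts with 3 bases on each side. The median context of a line was subtracted from its values, and p-values were adjusted over all contexts tested (Benjamini-Hochberg, threshold 0.05). "Higher" and "lower" below are therefore relative to the median context, and the changes are differences in centred log2 odds.

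K777A differed from WT set b mostly to one side among the members. Of 504 member contexts tested, 346 were higher and 10 lower, 68.7% and 1.98%. Over all 2057 contexts 79.7% were called, 43.7% higher and 36% lower. The median change was 0.59 over member contexts and 0.17 over all contexts. Of C/T contexts 200 of 252 were higher and 0 lower, and of C/A contexts 146 of 252 were higher and 10 lower. All 64 C/T contexts with A at +2 were higher, with a median change of 1.196, and with C at +2 32 of 63 were, with a median of 0.30. The largest rise was in ccACGCaa, from 7.35% and 6.29% in the WT lines to 13.5% and 15.3% (change 2.21, SE 0.077, limma adjusted p = 2.88e-05). The contexts tcACGCaa (change 2.14, SE 0.080, adjusted p = 2.88e-05) and acACGCaa (2.04, SE 0.098, adjusted p = 3.82e-05) followed, which differ from it only at -3. The largest fall was in gtTCGCgc, from 24.0% and 24.6% to 6.59% and 8.72% (-0.94, SE 0.11, adjusted p = 0.000803). The contexts gaTCGCgc (15.8% and 16.8% to 3.21% and 6.90%) and taTCGCgc (15.5% and 19.8% to 4.76% and 6.81%) were next. All 3 are C/A contexts that end in CGCGC, and 57 to 65 sites covered the least covered line. Most contexts were methylated less in K777A than in WT set b. Without centring, 43 of 504 member contexts were thus called higher and 252 lower, against 118 and 1388 of all 2057. With at least 10 reads per site, 37 of 72 member contexts were called, all higher. Over all 377 contexts then tested 241 were called, 123 higher and 118 lower.

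N779A against WT set b split the members in 2. Of 504 member contexts tested 82 were higher and 144 lower, 16.3% and 28.6%, whereas over all 2057 contexts 52.7% were called, 23.8% higher and 28.9% lower. The calls split by kind of site: 80 of 252 C/T contexts were higher and 8 lower (median change 0.22), while 2 of 252 C/A contexts were higher and 136 lower (median change -0.47). Among C/A contexts 44 of 64 with C at -2 were lower and 52 of 64 with T at +2 were. Among C/T contexts 4 of 64 with C at -2 were higher and 7 lower. The largest rises among called contexts with lines apart were in tgACGCgg (13.02% and 10.1% in WT, 19.0% and 19.7% in N779A, change 1.02, SE 0.11, limma adjusted p = 0.00455), tcACGCgg (9.78% and 7.45%, 13.9% and 14.03%) and aaACGCga (7.44% and 8.27%, 12.1% and 12.7%). All 3 have G at +2. The largest falls were in gtTCGCgc (24.0% and 24.6% in WT, 10.4% and 5.997% in N779A, change -1.71, SE 0.36, adjusted p = 0.0183), gtTCGCga (10.8% and 12.8%, 2.46% and 6.07%) and ttTCGCgt (19.8% and 14.1%, 8.13% and 4.67%), again C/A contexts with G at +2. The counts depended on the settings. Centred on the mean context, 115 of 504 member contexts were higher and 130 lower, against 609 and 525 of all 2057. Without centring 17 were higher and 157 lower, against 138 and 594. With at least 5 reads per site 106 of 492 were called, against 552 of all 2032, and with at least 10 reads 10 of 318, against 83 of 1534. In a quasi-binomial regression 18 of 504 were called, against 106 of 2057. Calls thus fell over all contexts and not only among members. Without N779A line 1 or 2 calls were fewer, and the median changes were 0.21 and 0.23 over C/T and -0.47 and -0.48 over C/A contexts.

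Many members were lower in N656I than in WT set a. Of 484 member contexts tested 187 were lower and 43 higher, 38.6% and 8.88%, whereas over all 2022 contexts 47.4% were called, 26.4% higher and 21.1% lower. Of C/T contexts 97 of 248 were lower and of C/A contexts 90 of 236, with medians of -0.34 and -0.38. The counts differed by the base at -2. Of C/T contexts with A at -2, 53 of 64 were lower and 0 higher (median -0.96). With C at -2, 0 were lower and 17 of 64 higher (median 0.23), and among C/A contexts with C at -2, 1 was lower and 19 of 64 higher. With T at -2, 20 of 62 C/T contexts were lower and 5 higher (median -0.091), against 35 of 57 and 0 of the C/A contexts (median -0.61). The largest falls were in gaACGCtg, from 14.8% and 14.6% to 4.21% and 2.96% (-1.61, SE 0.12, limma adjusted p = 0.00331), caACGCaa (13.6% and 12.9% to 4.25% and 2.54%) and caACGCtg (16.2% and 15.0% to 4.63% and 3.56%), all with A at -2. The largest rises among called contexts with lines apart, ggACGCga (1.31, SE 0.35, adjusted p = 0.0369), acTCGCgc (1.19, SE 0.11, adjusted p = 0.00408) and acACGCga (1.14, SE 0.31, adjusted p = 0.0378), rested on 33 to 57 sites in line 2a. Without line 2a the median change over member contexts was -0.33, against -0.35 with it. Without either N656I line the calls were lost over all contexts, members included. The median changes over member contexts were then -0.36 (without line 1) and -0.34 (without line 2). In a quasi-binomial regression 8 of 484 were called, all lower, against 48 of all 2022. Without centring 1 of 484 was higher and 270 lower, against 5 and 703 of all 2022.

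Many members were higher in DNMT3A than in WT set a relative to the median context. Of 484 tested 268 were higher and 22 lower, 55.4% and 4.55%, whereas over all 2022 contexts 65.8% were called, 31.7% higher and 34.1% lower. C/T and C/A contexts had like medians, 0.46 and 0.46, with 140 of 248 and 128 of 236 higher. With A at +2, 56 of 63 C/T and 50 of 64 C/A contexts were higher and 0 lower. The largest rise was in tcACGCaa, at 57.7% and 58.6% against 9.69% and 10.6% (1.80, SE 0.099, limma adjusted p = 0.000938). The contexts ggACGCga (43.4% and 48.9% against 9.45% and 3.64%, the last over 33 sites) and tcACGCat (56.6% and 54.7% against 9.26% and 10.8%) followed. The called contexts that fell most relative to the median, caACGCgg (-1.02, SE 0.27, adjusted p = 0.0322), agACGCgg (-0.95, SE 0.15, adjusted p = 0.00727) and caACGCgc (-0.92, SE 0.15, adjusted p = 0.00777), still had higher levels with DNMT3A, for example 33.3% and 34.4% against 24.5% and 19.1% for agACGCgg. Without centring 481 of 484 member contexts were higher and 0 lower, against 1885 and 22 of all 2022. The median change over member contexts was 0.43 without line 2a, 0.46 without line 1a and 0.47 without DNMT3A line 1 or 2. Calls were fewer without either DNMT3A line, over all contexts too. In a quasi-binomial regression 106 of 484 were called, against 689 of all 2022.

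**Figure D5:**
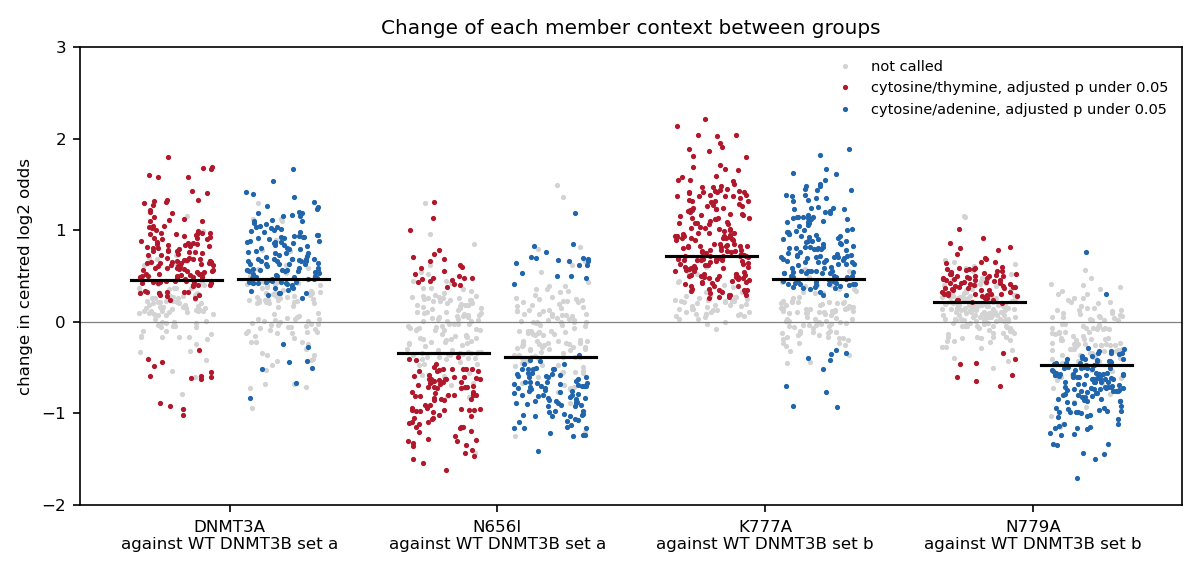
Change in centred log2 odds of each member context in the 4 comparisons, C/T contexts left and C/A contexts right in each, 1 point per context (484 or 504 tested), colored where the limma adjusted p was under 0.05, with a bar at the median. In N779A the medians are 0.22 and -0.47, and in K777A 0.72 and 0.46.

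tcACGCaa rose in both DNMT3A and K777A relative to their WT sets, while gtTCGCgc fell in both K777A and N779A. K777A and N779A share the WT set b lines, and DNMT3A and N656I share the set a lines, so such calls are not independent of each other. Side by side, ccACGCaa was at 48.5% and 48.6% in DNMT3A, 13.5% and 15.3% in K777A, 7.69% and 8.09% in N779A, 5.51% and 4.07% in N656I, 7.35% and 9.09% in WT set a and 7.35% and 6.29% in WT set b.

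The members were spread over the genome much like one another. Introns held 46.9% of C/T and 44.7% of C/A sites, intergenic sequence 44.9% and 45.9%, exons 3.73% and 4.51%, and stretches within 1 kb of a transcription start 4.45% and 4.91%. Near starts the levels were lower in every line, for example 35.3% and 35.5% at C/T sites in DNMT3A against 46.4% and 46.2% in introns, and 8.76% and 9.52% against 11.7% and 13.6% in N779A. The gap of N779A was present in all 4 kinds of sequence, with C/A sites at 5.25% and 6.03% near starts, 7.15% and 8.31% in introns, 6.36% and 7.18% between genes and 8.21% and 9.36% in exons.

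Repeats held 28.9% of C/T sites but 21.6% of C/A sites, as judged by soft-masking. In N779A the levels in soft-masked sequence were 9.80% and 11.4% at C/T sites and 6.55% and 7.61% at C/A sites, and elsewhere 11.4% and 12.97% against 6.80% and 7.78%. In K777A they were 8.82% and 10.1% against 6.54% and 7.32% in soft-masked sequence, and 9.97% and 11.7% against 7.29% and 8.26% elsewhere. CpG density was compared within the limit of 5 rows. In N779A C/T sites with no other row within 100 bp were at 10.6% and 12.02% and those with 5 rows at 11.2% and 12.7%, and C/A sites at 6.21% and 7.14% and at 6.94% and 7.80%. In N656I C/T sites rose from 8.18% and 6.09% with 1 row to 9.80% and 7.08% with 5.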

How the data were processed

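eRRBS used MspI, BfaI and MseI digestion. The submitters' processing notes name cutadapt 1.12, Bismark 0.18.1 and Bowtie 1.2 with mm10 (GRCm38), whereas the methods of the study give another cutadapt version. The authors deposited, per CpG and line, the counts of methylated reads and of all reads with the strands merged, not normalized. Every column matched a line. Rows were joined to GRCm38.p6 for flanking bases and to GENCODE for genes. Of 15761900 low-density autosomal rows 25 lacked a base call and were dropped. Levels used sites with at least 1 read, and 2 lines per group gave the SD. limma 3.58.1 (R 4.3.3, trend) tested log2 odds per context with an offset of 0.5 over the number of sites, for contexts with at least 20 covered sites in each of the 4 lines. Its step was checked on simulated data. Named contexts were, per comparison, the 3 that rose most and the 3 that fell most, if called and if the lines of the groups did not overlap, and per group the 2 highest and lowest, for which at least 20 sites per line was required after seeing the data. Members and lists were chosen with earlier results of these data known. No interval is given for depth, since reads carry no molecular identifiers.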

Additional observations from a re-analysis of the deposited data

How the results depend on the processing

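The excess of C/T over C/A sites in K777A and N779A over WT set b kept its direction under all alternatives run. Leaving out each line in turn gave 0.34 to 0.39 for K777A and 0.60 to 0.62 for N779A, 0.014 to 0.023 for DNMT3A and -0.028 to -0.018 for N656I. A group value is said to move when it shifts by more than the SD between lines pooled over the 6 groups. Differences between groups are listed where their sign changed, and counts of calls by the factor by which they changed. The cause was not tested for any shift below.

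The DNMT3A difference reversed to -0.051 with outer contexts weighted equally, -0.0035 at sites with no other row within 100 bp, -0.016 at sites covered in all 4 lines, -0.046 against WT set b and -0.014 against all 4 WT lines. The N656I difference reversed to 0.013 with outer contexts weighted equally.

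With outer contexts weighted equally, the log2 ratio of C/T over C/A sites was 0.13 in DNMT3A, 0.18 in WT set a, 0.19 in N656I, 0.28 in WT set b, 0.53 in K777A and 0.90 in N779A. At sites with no other row within 100 bp it was 0.082, 0.085, 0.13 (WT set b), 0.50 and 0.76 in the same order without N656I. Without soft-masked sites it was 0.055 in WT set a, 0.12 in WT set b and 0.74 in N779A. With at least 10 reads it was -0.015 in N656I, 0.045 in WT set b and 0.38 in K777A, with at least 5 reads 0.071 in WT set b and 0.68 in N779A, and with reads summed over sites -0.0032 in N656I and 0.085 in WT set b. Leaving out a line gave 0.44 to 0.49 in K777A.

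The log2 of the highest over the lowest base at -2 moved as follows. With outer contexts weighted equally it was 1.27 (N656I), 0.90 (WT set b) and 1.15 (N779A) at C/T sites, and 0.32 (DNMT3A), 0.57 (WT set a), 1.19 (N656I) and 0.60 (N779A) at C/A sites. With at least 10 reads it was 0.93 (WT set a) and 0.73 (K777A) at C/T sites, and 0.27 (DNMT3A), 0.65 (WT set a), 1.37 (N656I), 0.49 (WT set b), 0.53 (K777A) and 0.60 (N779A) at C/A sites. With reads summed it was 0.91 in WT set a at C/T sites, and 0.60 in WT set a and 1.32 in N656I at C/A sites. Of 192 base values relative to the mean, 24 changed sign with outer contexts weighted equally, 17 with at least 10 reads and 5 with reads summed. At equal CpG density and without a directly following CpG, where G at +2 gives no value, 2 changed sign and 178 did not in each. Leaving out a line gave 1.06 to 1.14 in N779A and 0.79 to 0.87 in WT set a at C/T sites, and 0.50 to 0.55 in WT set a at C/A sites.

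The distance of C/T sites from the mean of their symmetric classes, in points, became -0.00788 in DNMT3A, 2.48 in WT set a, 2.44 in N656I, 2.77 in WT set b, 0.405 in K777A and 1.73 in N779A with outer contexts weighted equally, and that of C/A sites 3.02 in DNMT3A and -1.91 in N779A. With at least 10 reads it was 2.21 in WT set a, -0.327 in K777A and 0.522 in N779A for C/T sites and -3.01 in N779A for C/A sites, and with reads summed 2.18 in WT set a for C/T sites. Leaving out a line gave 1.77 to 2.23 for C/T and -5.19 to -4.03 for C/A sites in N656I.

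Of member contexts called by limma, sites with no other row within 100 bp gave 161 (DNMT3A) and 92 (N656I) of 330 tested, against 785 and 408 of all 1589 contexts. They gave 227 (K777A) and 96 (N779A) of 330, against 1184 and 577 of all 1596. At least 10 reads gave 121 of 357 (N656I), 37 of 72 (K777A) and 10 of 318 (N779A), against 570 of 1695, 241 of 377 and 83 of 1534 over all contexts. At least 5 reads gave 106 of 492 (N779A), against 552 of 2032. No centring gave 481 of 484 (DNMT3A), against 1907 of 2022. Quasi-binomial regression gave 106 of 484 (DNMT3A), 8 of 484 (N656I) and 18 of 504 (N779A), against 689 of 2022, 48 of 2022 and 106 of 2057. Leaving out a line gave 98 to 394 in DNMT3A, 0 to 289 in N656I, 299 to 375 in K777A and 121 to 174 in N779A. Where a group was left with 1 line, that line was assumed to vary like the others.

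Line numbers are only names of independently derived lines, and same-numbered lines did not deviate together (r = -0.051 to 0.011 across contexts). With the replicate block 265 (DNMT3A) and 188 (N656I) of 484 member contexts were called, against 1218 and 792 of all 2022. For K777A and N779A 364 and 200 of 504 were called, against 1637 and 957 of all 2057. The N656I difference was -0.053 at sites covered in all 4 lines. Covered members had 2.30 to 5.15 reads on average outside WT line 2a, which limits what single sites can show, and 4.52% of members were covered in that line.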
